A study of Mus musculus with 8 samples.

Results

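The genes described here are the 7 haemoglobin genes of the mouse that are used in embryonic and adult red cells, the erythroid enzyme gene Alas2, and Mb, which encodes myoglobin. They were chosen by gene symbol, and all 9 were found among the 51826 genes of the count table, each with a single row. All 9 passed the filter on low counts. RNA labelled as cardiomyocyte RNA from the heart was sequenced from wild-type (WT) mice and from mice null for the long noncoding RNA LncSync, labelled LncSync-/- and called KO here. Each genotype was sampled at e13.5, counted in days after conception, and in adults of unstated age, which gave 4 groups of 2 libraries, all labelled C57BL/6. The 8 libraries therefore share strain, tissue, cell type label and preparation (200 ng of RNA, reverse transcribed and amplified by Smart-seq2), and no animal number, sex or pooling was given for them. No other allele or agent was named in the labels.

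Haemoglobin is a tetramer of alpha-type and beta-type chains, each of which holds a haem group that binds oxygen. In the mouse the alpha-type genes lie in a cluster on chromosome 11 and the beta-type genes in another on chromosome 7. The first red cells, made in the yolk sac, use the embryonic genes Hba-x (zeta globin), Hbb-y (epsilon-y) and Hbb-bh1 (beta-h1) beside adult-type alpha genes, whereas red cells made later in the fetal liver and the bone marrow use the adult-type genes Hba-a1, Hba-a2, Hbb-bs and Hbb-bt. Around midgestation both kinds of red cell circulate. Alas2 encodes the erythroid form of the enzyme that starts haem synthesis. Myoglobin is a single-chain relative of haemoglobin that binds oxygen inside heart and skeletal muscle cells. Globins in heart RNA are thus read as a sign of blood cells, and myoglobin as the muscle form.

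The embryonic genes differ from the adult-type genes along their whole length, which lets reads be assigned to them. The first 60 coding bases of the reference transcripts (GENCODE vM21) are shown to make this visible, with bases that differ from the adult-type gene of the same kind in capitals. Hba-x is set against Hba-a1, and Hbb-y and Hbb-bh1 against Hbb-bs.
Hba-a1: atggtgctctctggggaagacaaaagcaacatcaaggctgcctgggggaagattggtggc
Hba-x: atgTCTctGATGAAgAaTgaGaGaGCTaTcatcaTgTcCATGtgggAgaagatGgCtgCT
Hbb-bs: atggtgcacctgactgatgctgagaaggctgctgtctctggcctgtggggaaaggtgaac
Hbb-y: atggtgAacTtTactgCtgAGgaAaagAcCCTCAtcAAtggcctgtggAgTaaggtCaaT
Hbb-bh1: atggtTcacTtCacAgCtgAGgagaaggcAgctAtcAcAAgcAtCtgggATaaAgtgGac
In this stretch Hba-x differs from Hba-a1 at 28 bases, Hbb-y from Hbb-bs at 19 and Hbb-bh1 from Hbb-bs at 18. Over the whole coding sequence Hba-x matched Hba-a1 at 62.0% of 429 bases. Among the beta-type genes, each of 444 coding bases, the embryonic genes matched the adult-type genes at 73.9% to 74.3% and each other at 76.4%.

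The adult-type genes, in contrast, come in near-identical pairs. Hba-a1 and Hba-a2 differ in the coding sequence by a single base, C381T, and Hbb-bs and Hbb-bt by C417T, with positions counted from 1 at the A of the start codon. The stretches that hold these bases are shown because the division of counts within each pair is described below, and the differing base is in capitals.
Hba-a1: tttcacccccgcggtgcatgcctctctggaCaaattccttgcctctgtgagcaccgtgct
Hba-a2: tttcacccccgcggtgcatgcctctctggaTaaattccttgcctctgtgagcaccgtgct
Hbb-bs: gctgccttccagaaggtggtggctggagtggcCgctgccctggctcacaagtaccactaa
Hbb-bt: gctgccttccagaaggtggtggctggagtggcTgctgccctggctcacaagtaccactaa
The whole transcripts of the pairs differ more in length or sequence. The Hba-a1 and Hba-a2 transcripts, of 699 and 554 bases, aligned over 538 bases with 1 mismatch. The Hbb-bs and Hbb-bt transcripts, of 628 and 703 bases, aligned over 625 bases with 43 mismatches. An estimate of counts for Hba-a1 and Hba-a2 apart therefore rests on reads that cover the mismatch or bases outside the aligned part. The number of such reads was not counted, and both pairs are also given as sums.

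Total counts ran from 16495084 to 20395600 per library, and levels are given as CPM, counts scaled to an equal library total, with TMM scaling, whose factors ran from 0.770 to 1.44. A count of 0 in a library allows a level of up to 3 counts, or 0.103 to 0.207 CPM. Intervals and floors cover counting error only. Tests across genes are edgeR's quasi-likelihood test, two-sided, adjusted by the Benjamini-Hochberg method over the 16623 genes tested, with a threshold of 0.05. Values after ± are standard errors of a log2 fold change unless marked SD. Since edgeR reports no standard error, each was worked back from the test, as the absolute log2 fold change over the square root of F. Such a value is not an independent estimate of the spread. The labels do not say whether replicates were separate animals, so p-values measure only the spread between these samples. The 18 cardiomyocyte markers searched were above 0 in all 8 libraries, with a summed level of 19508 to 49921 CPM at e13.5 and of 85926 to 109884 CPM in adults. LncSync has no row of that name in the table, so its loss was not checked here.

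Libraries 1 and 2 of each genotype at e13.5 differed in how transcripts of different length were represented, a comparison made after the values were seen. Among tested genes with a protein-coding transcript, the 9 genes left out, the median log2 ratio of library 1 to library 2 (CPM, pseudocount 0.5) was 0.68 in WT and 0.6 in KO for the shortest of 4 classes of about equal size, of up to 2164 exon bases (3601 genes). It was -1.04 in WT and -0.5 in KO for the longest class, of 5119 bases or more (3599 genes). The 7 haemoglobin genes have 554 to 938 exon bases, and on the same scale they were higher in library 1 by 0.95 to 1.54 in WT and by 2.49 to 3.27 in KO, above the median of the shortest class. In adults the medians of the 4 classes ran from 0.01 to 0.1 in WT and from 0.38 (shortest) to -0.19 (longest) in KO. The part of transcript length in the haemoglobin values was not tested.

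Haemoglobin RNA was abundant in every embryonic library and nearly absent from every adult one. The 7 haemoglobin genes together took 4.65% and 2.89% of the counts in libraries 1 and 2 of the WT embryos, and 15.5% and 3.19% in those of the KO embryos. In adults they took 0.00145% and 0.00734% (WT) and 0.0136% and 0.00181% (KO). As levels, the sums were 43745, 20104, 159568 and 22753 CPM in the e13.5 libraries, in the same order, and 16.7, 86.8, 177 and 21.5 CPM in the adult ones. KO e13.5 library 1 stood above the other 3 e13.5 libraries, while KO library 2 lay between the 2 WT libraries, so the genotypes overlapped at e13.5. The share of counts was 3.77% ± 1.25 (SD, n = 2) in WT and 9.34% ± 8.69 (SD, n = 2) in KO at e13.5 (two-sided exact permutation p = 0.667, where 2 against 2 libraries cannot go below 0.333). In these bulk samples, fewer cells of a type and less RNA per cell cannot be told apart.

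**Figure D1:**
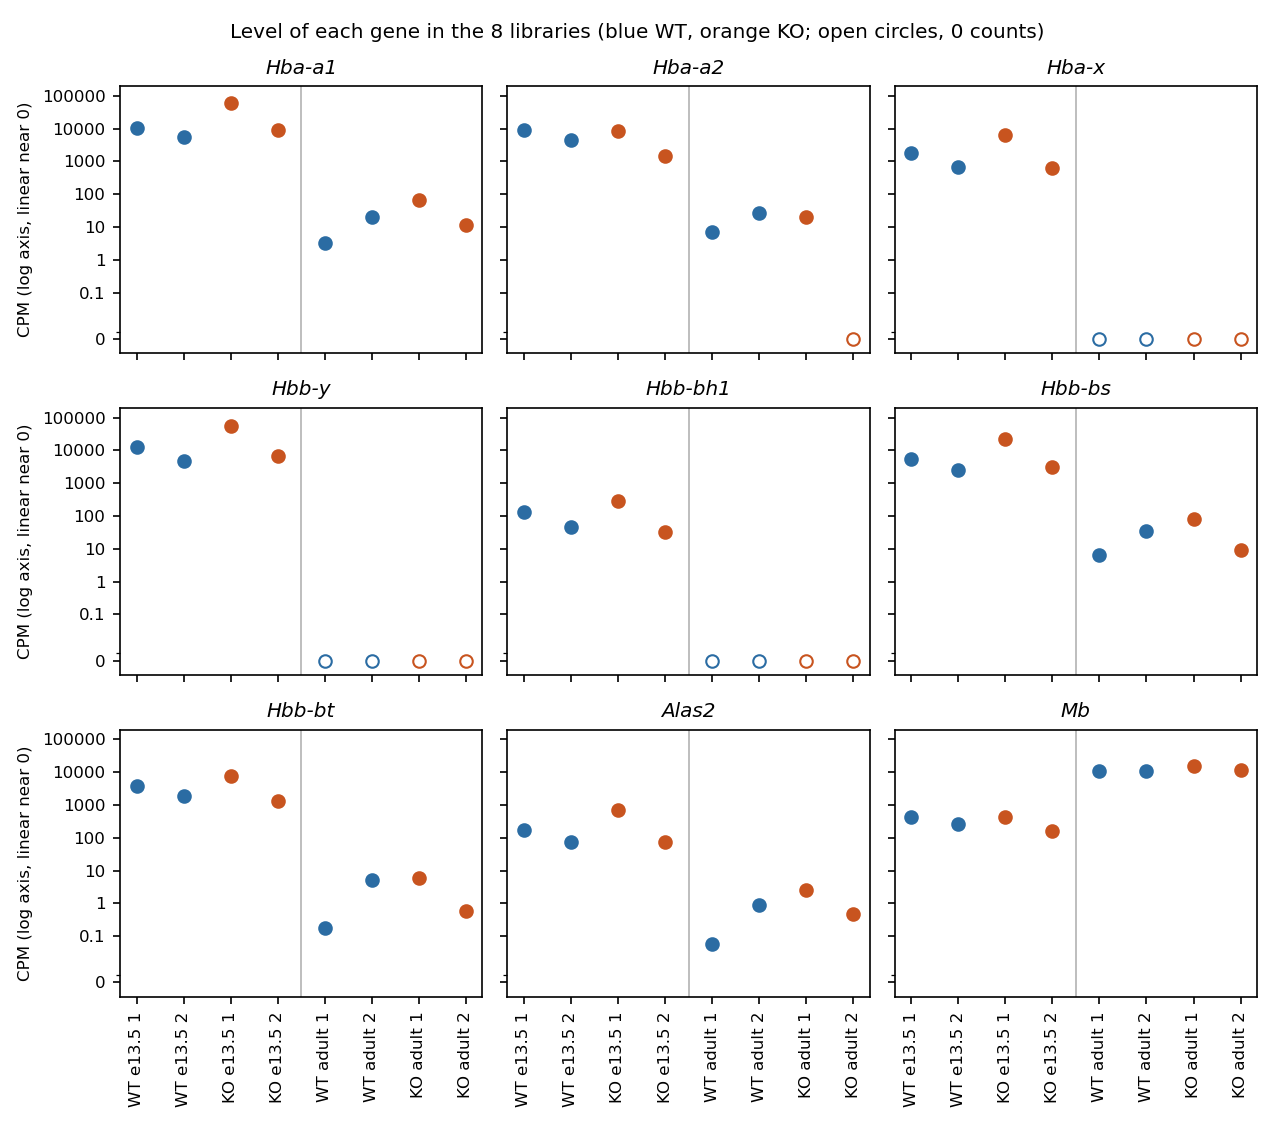
CPM of each of the 9 genes (log axis, linear near 0) in the 8 libraries, with WT in blue, KO in orange and libraries with 0 counts as open circles on the 0 line. Hba-x, Hbb-y and Hbb-bh1 lie at 0 in all 4 adult libraries, the adult-type globins and Alas2 lie far lower in adults than at e13.5, and Mb alone lies higher in adults.

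With age, 8 of the 9 genes fell and Mb rose, in WT and in KO. The counts were the same in KO without KO e13.5 library 1, which stood apart in haemoglobin. For comparison, of all genes tested 21.1% fell and 17.8% rose in WT, and 20.9% fell and 20.5% rose in KO (38.9% and 41.4% changed in either direction). These shares depended on single libraries. In WT 16.9% of genes changed without WT adult library 1 (9.79% rose and 7.09% fell) and 16.8% without WT adult library 2 (10.3% rose and 6.46% fell), and in KO 23.6% changed without KO adult library 1 and 20.7% without KO adult library 2. The median log2 change of all genes was -0.26 in WT and -0.15 in KO. Both age comparisons are of separate libraries, and the test of whether the change with age differed between the genotypes found 0 of the 9 genes (0.00% of all genes changed there, 0 of the 9 had an unadjusted p under 0.05, and DESeq2 also called 0 of the 9).

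Hbb-y (ENSMUSG00000052187, chromosome 7, 103851749 to 103853216, minus strand, 3 exons) is the main embryonic beta-type gene. Its level was 12993 and 4842 CPM (WT) and 55177 and 6697 CPM (KO) at e13.5. It had 0 counts in all 4 adult libraries, so the groups of the 2 ages did not overlap. Set against a floor of 3 counts over both adult libraries of a genotype, Hbb-y was at least 94222-fold lower in WT adults (adjusted p = 5.55e-04) and at least 312104-fold lower in KO adults (adjusted p = 4.28e-04).

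Hbb-bh1 (ENSMUSG00000052217, chromosome 7, 103841637 to 103843164, minus strand, 3 exons), the other embryonic beta-type gene, was much less abundant. Its level was 134 and 45.9 CPM (WT) and 280 and 31.5 CPM (KO) at e13.5, and 0 in every adult library. It was at least 952-fold lower in WT adults (adjusted p = 0.00179) and at least 1573-fold lower in KO adults (adjusted p = 0.00133). Hba-x (ENSMUSG00000055609, chromosome 11, 32276400 to 32278116, plus strand, 3 exons), the embryonic alpha-type gene, stood at 1758 and 680 CPM (WT) and 6248 and 646 CPM (KO) at e13.5. It too had 0 counts in all adult libraries, at least 12879-fold lower in WT (adjusted p = 8.50e-04) and at least 34771-fold lower in KO (adjusted p = 6.21e-04). The 3 embryonic genes thus shared their order over the e13.5 libraries to the extent that KO library 1 was highest and WT library 1 next.

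The adult-type genes fell with age as well, but stayed detectable. Hba-a1 (ENSMUSG00000069919, chromosome 11, 32283511 to 32284465, plus strand, 3 exons) had 10801 and 5586 CPM (WT) and 59854.5 and 9413 CPM (KO) at e13.5, against 3.14 and 20.7 CPM in WT adults and 69.0 and 11.7 CPM in KO adults. The log2 change with age was -9.42 ± 1.60 in WT (adjusted p = 0.00202) and -9.75 ± 1.62 for KO (adjusted p = 0.00164). Hba-a2 (ENSMUSG00000069917, chromosome 11, 32296489 to 32297298, plus strand, 3 exons) had 8798 and 4493 CPM (WT) and 8402 and 1491 CPM (KO) at e13.5. In adults it had 6.81 and 26.0 CPM in WT, 19.8 CPM in KO library 1 and 0 counts in KO library 2. Its log2 change was -8.66 ± 2.10 in WT (adjusted p = 0.0106) and -8.97 ± 2.12 for KO (adjusted p = 0.00897). With a library left out the KO value ran from -19.59 (without KO adult 1, which leaves a lone adult library at 0 counts, so that the value is no bound) to -7.22 (without KO e13.5 1). Without WT adult library 1 the change of Hba-a2 in WT was -8.00 and did not pass the test (adjusted p = 0.0671).

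Of the adult beta-type pair, Hbb-bs (ENSMUSG00000052305, chromosome 7, 103826534 to 103828096, minus strand, 3 exons) had 5492 and 2599 CPM (WT) and 22187 and 3161 CPM (KO) at e13.5. In adults it had 6.58 and 34.9 CPM (WT) and 82.6 and 9.21 CPM (KO), a log2 change of -7.61 ± 1.54 in WT (adjusted p = 0.00459) and -8.11 ± 1.57 for KO (adjusted p = 0.00346). Hbb-bt (ENSMUSG00000073940, chromosome 7, 103812524 to 103813996, minus strand, 3 exons) had 3770 and 1858 CPM (WT) and 7419 and 1313 CPM (KO) at e13.5. In adults it had 0.175 and 5.17 CPM (WT) and 5.73 and 0.597 CPM (KO), the former value resting on 3 counts. Its log2 change was -10.05 ± 1.85 in WT (adjusted p = 0.00296) and -10.43 ± 1.88 for KO (adjusted p = 0.00246). The sizes of these changes depended on single libraries. With each library left out in turn, the log2 change of Hba-a1 ran from -11.32 (without WT adult 2) to -8.62 (without WT adult 1) in WT and from -11.53 (without KO adult 1) to -7.85 (without KO e13.5 1) in KO. That of Hbb-bs ran from -9.24 to -6.82 in WT and from -10.42 to -6.09 in KO, and that of Hbb-bt from -13.90 to -9.09 and from -12.82 to -8.67, passing the test each time.

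Among the globins that remained in adults, no library held a count of an embryonic gene. The adult libraries had 116, 582, 1340 and 148 beta-type counts, which allow an embryonic share of up to 2.59%, 0.515%, 0.224% and 2.03% (WT 1, WT 2, KO 1 and KO 2). They had 171, 678, 1347 and 176 alpha-type counts, which allow an Hba-x share of up to 1.75%, 0.442%, 0.223% and 1.70%.

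At e13.5 the embryonic genes made up most of the beta-type counts but little of the alpha-type counts. Hbb-y and Hbb-bh1 together took 58.6% and 52.3% of beta-type counts in WT libraries 1 and 2 and 65.2% and 60.1% in KO libraries 1 and 2. The widest exact binomial 95% interval of these 4 shares, that of WT library 2, ran from 52.1% to 52.5%. Hba-x took 8.23% and 6.32% of alpha-type counts in WT and 8.39% and 5.59% in KO. Within each genotype library 1 had the higher embryonic share in both chain types. The beta-type share was higher in both KO libraries than in both WT libraries, with means of 62.6% ± 3.63 and 55.5% ± 4.47 (SD, n = 2 each; two-sided exact permutation p = 0.333, the smallest that 2 against 2 allows), and the genotypes' Hba-x shares overlapped (exact permutation p = 1). Counted per kilobase of exon, the Hba-x share was 5.65% and 4.31% (WT) and 6.20% and 4.09% (KO).

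**Figure D2:**
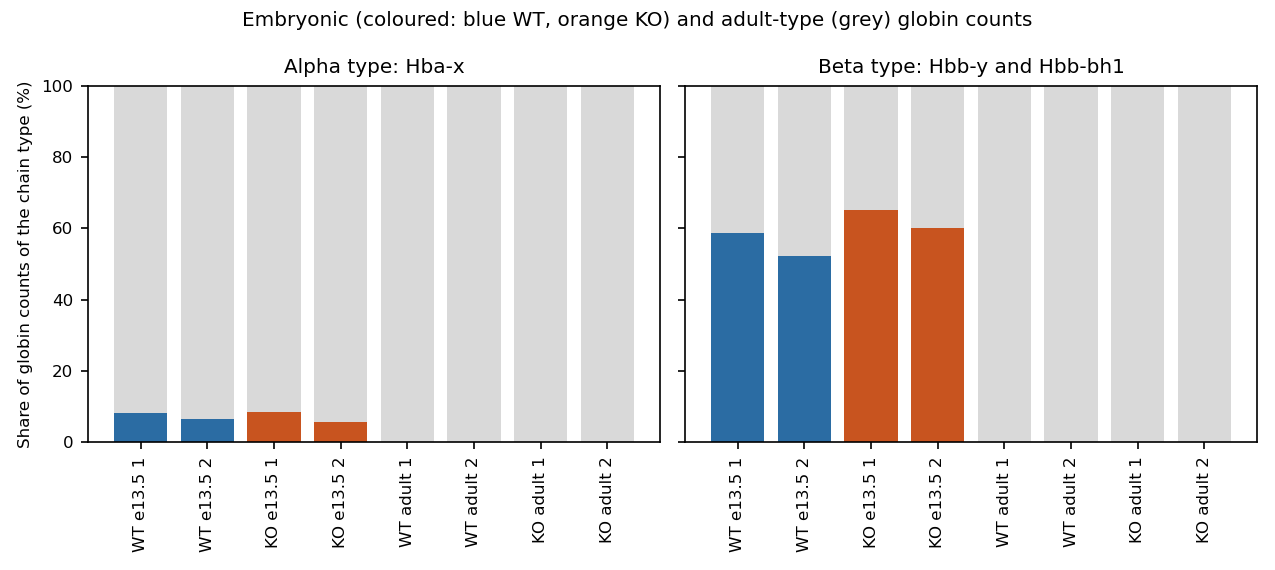
Share of alpha-type counts from Hba-x (left) and of beta-type counts from Hbb-y and Hbb-bh1 (right) in each library, in percent, with embryonic genes in colour (blue WT, orange KO) and adult-type genes in grey. At e13.5 the embryonic share is 52.3% to 65.2% for the beta type and 5.59% to 8.39% for the alpha type, and no adult library has an embryonic count.

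Alpha-type and beta-type genes were otherwise balanced. Alpha-type genes took 48.8% and 53.5% of the haemoglobin counts of the WT embryos and 46.7% and 50.8% of those of the KO embryos, and 50.1% to 59.6% in the adult libraries. The genotypes overlapped at both ages (exact permutation p = 0.667 at each). At e13.5 in WT the mean levels per kilobase of exon, the scale on which genes can be ordered, were highest for Hbb-y (14088 CPM per kb), Hba-a2 (11995) and Hba-a1 (11722), followed by Hbb-bs (5674), Hbb-bt (4002.5) and Hba-x (1300). In KO the order of mean levels was Hba-a1 (49548 CPM per kb), Hbb-y (48874), Hbb-bs (17776), Hba-a2 (8929), Hbb-bt (6211) and Hba-x (3674.5). Hbb-bh1 was last in both. Since the haemoglobin level as a whole differed between the libraries, neighbours were compared within each library. In WT Hba-a2 and Hba-a1 differed by 1.03-fold and 1.01-fold in libraries 1 and 2, and Hbb-y was 1.29-fold and 0.943-fold the level of Hba-a2, so the order of these 3 genes was not resolved. In KO Hba-a1 was 0.982-fold and 1.27-fold the level of Hbb-y, and this pair too changed places between the libraries. The other neighbours kept their order in both libraries of a genotype. For instance, Hba-a1 stood 2.01-fold and 2.19-fold above Hbb-bs in WT, Hbb-bs 1.44-fold and 1.38-fold above Hbb-bt in WT, and Hbb-y 2.8-fold and 2.39-fold above Hbb-bs in KO.

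The division of counts within the near-identical pairs differed between the genotypes, a pattern chosen for description after the values were seen. Of the counts given to Hba-a1 and Hba-a2 together, Hba-a1 took 55.1% and 55.4% in the 2 WT embryo libraries against 87.7% and 86.3% with the KO. In adults it took 31.6% (95% interval 24.7% to 39.1%) and 44.4% (40.6% to 48.2%) in WT, and 77.7% (75.4% to 79.9%) and 100% (97.9% to 100%) in KO. At each age both KO libraries were above both WT libraries. The means at e13.5 were 55.3% ± 0.219 in WT and 87.0% ± 0.969 in KO (SD, n = 2), and in adults 38.0% ± 9.07 and 88.9% ± 15.8 (exact permutation p = 0.333 at each age, the smallest possible). The genotypes were 31.7 percentage points apart at e13.5, a distance far above the SD of either group.

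Both beta-type divisions also separated the genotypes at e13.5. Hbb-bs took 59.3% and 58.3% of the Hbb-bs and Hbb-bt counts in WT and 74.9% and 70.7% in KO (exact permutation p = 0.333). In adults the genotypes overlapped, at 97.4% and 87.1% (WT) and 93.5% and 93.9% (KO). Of the embryonic beta-type counts Hbb-bh1 took 1.02% (0.986% to 1.06%) and 0.939% (0.890% to 0.991%) in WT, and 0.505% (0.491% to 0.520%) and 0.469% (0.437% to 0.502%) in KO (exact permutation p = 0.333). Hbb-bh1 and Hbb-y differ at 105 of 444 coding bases. The summed pairs showed no call between the genotypes. At e13.5 the log2 difference of KO from WT was 1.42 ± 1.12 for Hba-a1 plus Hba-a2 and 1.31 ± 1.17 for Hbb-bs plus Hbb-bt (adjusted p = 1 for both), and in adults it was 0.83 ± 1.11 and 1.07 ± 1.17 (adjusted p = 1 for both). Reads of the pairs can be assigned to the wrong gene. The part of read assignment in the divisions, that of Hbb-bh1 and Hbb-y included, was not tested. A difference in strain background between the genotypes, beyond the shared C57BL/6 label, was not tested either.

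**Figure D3:**
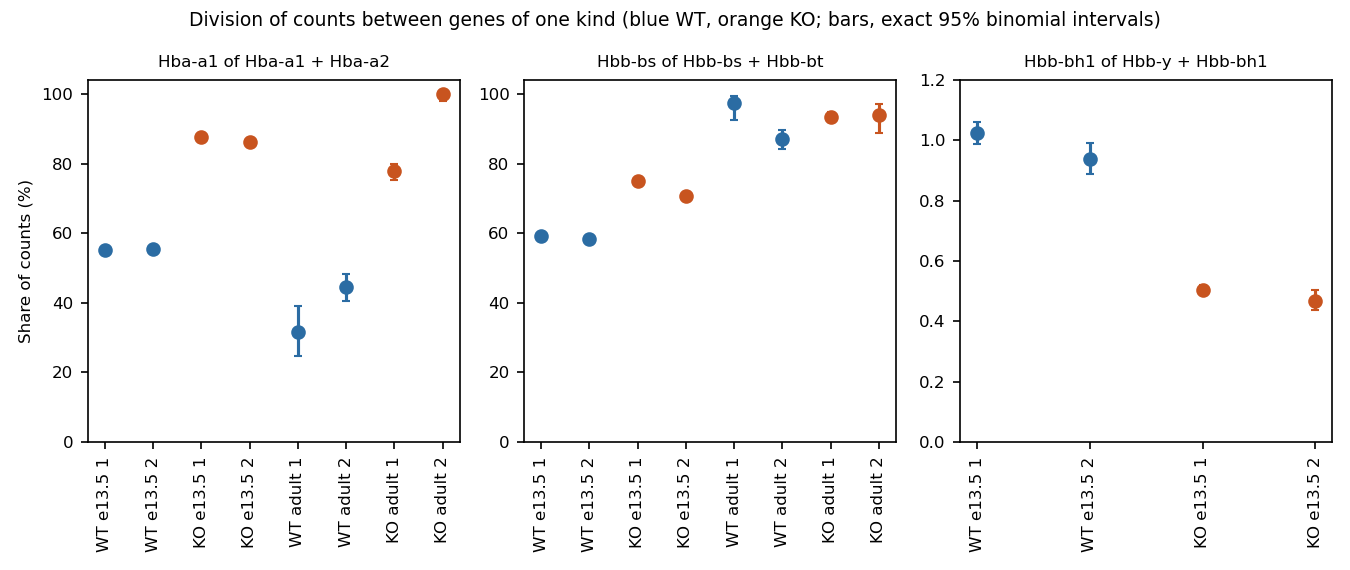
Percent of counts taken by Hba-a1 within its pair, by Hbb-bs within its pair and by Hbb-bh1 among embryonic beta-type genes, per library, with exact 95% binomial intervals (blue WT, orange KO). The Hba-a1 share is 55.1% and 55.4% in WT against 87.7% and 86.3% in KO at e13.5, and the Hbb-bh1 share, drawn on its own scale, is 1.02% and 0.939% against 0.505% and 0.469%.

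Alas2 (ENSMUSG00000025270, X chromosome, 150547375 to 150570638, plus strand, 11 exons) fell with age like the haemoglobin genes. Its level was 167 and 75.5 CPM (WT) and 685 and 73.7 CPM (KO) at e13.5, and 0.0582 and 0.895 CPM (WT) and 2.57 and 0.464 CPM (KO) adults. Its log2 change with age was -8.02 ± 1.49 in WT (adjusted p = 0.00311) and -7.96 ± 1.45 for KO (adjusted p = 0.00260), from -10.86 to -7.07 and from -9.65 to -5.58 with a library left out. At e13.5 there were 3.83 and 3.76 counts of Alas2 per 1000 haemoglobin counts in WT and 4.29 and 3.24 in KO, so over these 4 libraries the ratio varied far less than the haemoglobin level. In adults the ratio was 3.48 and 10.3 in WT and 14.5 and 21.6 in KO, in 3 of the 4 libraries above every e13.5 value, where Alas2 rested on 1, 13, 39 and 7 counts.

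Other genes of haem synthesis did not share the fall of Alas2 as a group. Of 12 genes for haem synthesis and mitochondrial iron import, Alas2 included, 3 rose and 1 fell with age in WT and 2 rose and 2 fell in KO, with median log2 changes of 0.21 and 0.01. These counts lie near the shares of all genes given above, of which 17.8% rose and 21.1% fell in WT and 20.5% rose and 20.9% fell in KO. Cpox, which encodes a late enzyme of the pathway, rose by 3.88 ± 0.45 in WT (adjusted p = 4.05e-04) and 3.97 ± 0.46 for KO (adjusted p = 3.27e-04). Alas1, the form of the first enzyme used outside red cells, stood at 83.2, 44.9, 128 and 49.7 CPM at e13.5 and at 223 to 257 CPM in adults, a log2 change of 1.91 ± 0.54 in WT (adjusted p = 0.0214). Alas1 passed in 5 of the 8 fits that left out a library, and it did not pass without WT e13.5 library 2 or without either WT adult library. Without WT adult library 1, 1 of the 12 genes rose in WT, and in KO 1 rose without KO adult library 1 and 1 fell without KO e13.5 library 1. Of 7 genes for haem export and breakdown, 2 fell in each genotype, among them Hmox1, which encodes haem oxygenase (log2 -2.83 ± 0.65 in WT, adjusted p = 0.00812). Its level was 44.2 to 165 CPM at e13.5 and 6.96 to 16 CPM in adults, highest at e13.5 in KO library 1. In WT it did not pass without either adult library, and 0 of the 7 genes fell without WT adult library 1.

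Genes that mark red cells and their precursors were present at e13.5, and many of them had 0 counts in adults. Of 17 red cell membrane and skeleton genes, 9 fell and 4 rose with age in WT, and 8 fell and 4 rose in KO (median log2 -1.53 and -1.06). Over all genes tested, 21.1% fell and 17.8% rose in WT, and 20.9% fell and 20.5% rose in KO. The counts that rose lie near those shares. Slc4a1, the anion exchanger band 3, was at 10.3, 27.7, 19.3 and 19.2 CPM in the e13.5 libraries and at 0 in all adult ones, as were Epb42, Rhag, Kel, Ermap and Cldn13. The genes that rose included Sptb (beta spectrin, log2 4.36 ± 0.60 in WT), Ank1 (ankyrin, 4.01 ± 0.56) and Aqp1 (a water channel, 2.99 ± 0.45), which are also used in muscle or vessels. Without WT e13.5 library 1, 6 genes fell in WT. Hbb and Hba counts of 287 to 2687 per adult library thus stood beside 0 counts of band 3. At e13.5, however, band 3 was at 10.3 to 27.7 CPM beside haemoglobin sums of 20104 to 159568 CPM. At such ratios the adult haemoglobin counts would bring few or no counts of band 3, so its zeros there say little.

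Of 11 erythroid transcription factors and receptors, 5 fell in each genotype, and 3 rose in WT and 4 in KO. Nfe2, Gata1 and Gfi1b, factors of the erythroid lineage, were at 0 in all 4 adult libraries, and Nfe2 was at 2.12 to 6.19 CPM at e13.5. These factors were below band 3 in every e13.5 library, so their adult zeros say no more than those of band 3. Zfpm1, a partner of GATA factors, rose by 5.19 ± 0.93 in WT (adjusted p = 0.00264). Gata1 did not pass in either genotype without 1 adult library of that genotype (largest adjusted p 0.0809 in WT and 0.0597 in KO). Without WT adult library 1, 2 of these genes fell in WT, and without KO adult library 2, 2 fell in KO. Of all genes tested 17.8% rose and 21.1% fell in WT, and 20.5% rose and 20.9% fell in KO. Of 14 erythroid enzymes and chaperones 13 were in the table and 10 were tested. Of these 10, 2 rose and 2 fell in WT, near the shares of all genes, and 2 rose and 4 fell in KO. With a library left out, 0 to 2 rose and 1 to 4 fell in WT (0 rose without WT adult 1), and 1 to 6 fell in KO (1 without KO adult 2). Of 10 platelet and megakaryocyte genes 8 were tested, of which 5 fell in WT and 4 in KO, with as few as 1 in WT (without WT e13.5 2) and 2 in KO (without KO adult 1).

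Among 9 factors known to act on the switch from embryonic to adult globins, 2 rose and 3 fell in WT and 2 rose and 1 fell in KO. Of all genes tested 17.8% rose and 21.1% fell in WT, and 20.5% rose and 20.9% fell in KO. The counts of these factors lie near those shares. Bcl11a, a repressor of embryonic and fetal globins, was at 18.4 to 30.03 CPM at e13.5 and 1.65 to 4.24 CPM in adults (log2 -3.86 ± 0.55 in WT and -2.58 ± 0.52 in KO, adjusted p = 8.59e-04 and 0.00406). Klf2, which acts on embryonic globin genes and is also a gene of the endothelium, rose by 4.28 ± 0.47 in WT and 4.89 ± 0.49 in KO (adjusted p = 3.53e-04 and 2.39e-04). Lin28b, an RNA-binding protein of fetal blood cells, fell by 5.35 on the log2 scale in WT (SE 1.27, adjusted p = 0.00954). Without WT adult library 1, 1 of the 9 fell in WT and Lin28b did not pass (adjusted p = 0.0715). The count that rose was 1 in WT without WT e13.5 library 1 and 1 in KO without KO e13.5 library 1. These levels are for the whole sample and not for red cells alone.

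Between KO and WT at e13.5, 0 of the 9 genes changed, where 0.0722% of all genes did (0.0602% higher and 0.0120% lower). The edgeR test gave 0 of the 9 an unadjusted p under 0.05, and DESeq2 also called 0. Of the 9 fitted differences 7 were positive and 2 negative. The largest was that of Hba-a1, at 2.08 ± 1.15 on the log2 scale, followed by Hbb-y at 1.79 ± 1.0, Hbb-bs at 1.65 ± 1.18, Alas2 at 1.64 ± 1.08, Hba-x at 1.5 ± 0.98, Hbb-bh1 at 0.79 ± 0.93 and Hbb-bt at 0.63 ± 1.25. Hba-a2 was at -0.43 ± 1.5 and Mb at -0.26 ± 0.59, and the adjusted p was 1 for each of the 9. The positive values rested on KO library 1. Without it, Hba-x was at -0.93, Hbb-y at -0.42, Hbb-bh1 at -1.53, Hbb-bs at -0.37, Hbb-bt at -1.11, Alas2 at -0.73 and Hba-a1 at 0.19.

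In adults 0 of the 9 genes changed between KO and WT either, where 0.0481% of all genes did (0.0421% higher and 0.00602% lower; 0 of 9 at an unadjusted p under 0.05, and 0 by DESeq2). The 3 embryonic genes had 0 counts in both groups. The fitted differences were 1.76 ± 1.15 for Hba-a1, -0.73 ± 1.53 for Hba-a2, 1.15 ± 1.17 for Hbb-bs, 0.26 ± 1.33 for Hbb-bt, 1.71 ± 1.32 for Alas2 and 0.29 ± 0.59 for Mb (adjusted p = 1 for each). KO library 1 had the highest haemoglobin sum of the adult libraries, at 177 CPM, and without it Hbb-bs was at -1.17 and Alas2 at 0.01, while without WT library 2 Alas2 was at 4.55. None of the genes of the lists used here changed between the genotypes at either age by edgeR. All 9 globin switching factors had lower fitted values in KO at e13.5 (median log2 -0.48 against -0.07 over all genes) and 0 passed, with Klf2 at -1.29 ± 0.44 (adjusted p = 1). Klf2 alone had both KO libraries below both WT libraries. For the other factors the genotypes overlapped, as for Bcl11a (18.6 and 30.03 CPM in WT, 18.4 and 20.5 CPM in KO). In WT 7 of the 9 were lower in library 1 than in library 2, so their lower values in KO leaned on WT library 2.

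Among the marker lists, the sum of the erythroid enzymes and chaperones had the same order as haemoglobin over the e13.5 libraries. These 13 genes summed to 881 and 468 CPM (WT) and 1779 and 558 CPM (KO), with Car1 at 0 in both KO libraries. Prdx2 made up most of this sum, at 629 and 354 CPM (WT) and 1191.5 and 438 CPM (KO). The haem synthesis list without Alas2 had that order too (585 and 374 CPM in WT, 844 and 377 CPM in KO). So did the lists of haem export and of other globins. The red cell membrane genes did not (223 and 247 CPM in WT, 300 and 191 CPM in KO). Neither did the erythroid transcription factors and receptors (57.2 and 132 CPM in WT, 73.1 and 63.7 CPM in KO). The 13 macrophage and leukocyte genes summed to 56.6 and 66.2 CPM (WT) and 118 and 69.3 CPM (KO), highest in KO library 1, where Cd3e was at 0. They were split, with 7 higher and 6 lower in library 1 than in library 2 in KO, and 6 higher and 7 lower in WT. In KO Lyz2 was at 62.8 against 15.8 CPM, and Csf1r at 8.94 against 26.55 CPM. The 18 cardiomyocyte genes summed to 47774 and 30563 CPM (WT) and 49921 and 19508 CPM (KO), and the 8 fibroblast genes to 886 and 3699 CPM (WT) and 418 and 3646 CPM (KO). The cardiomyocyte sum was higher in library 1 of each genotype, but its genes were split. Of the 18, 12 were higher in library 1 in WT and 14 in KO, among them Actc1 (14920 against 7311 CPM in WT). Gata4, Nkx2-5, Ryr2 and Ttn were lower in library 1 of both genotypes, with Ttn, which encodes the giant sarcomere protein titin, at 331 against 1757 CPM in WT and 532 against 808 CPM in KO. The 8 fibroblast genes were lower in library 1 for 6 genes in WT and for all 8 in KO. The 9 endothelial genes summed to 677 to 831 CPM, and were split as well, with Cdh5, Kdr, Tek and Pecam1 lower in library 1 of both genotypes and Emcn, Esam, Egfl7 and Cldn5 higher. These cardiomyocyte and endothelial genes, and Afp, are named after their values were seen. The 10 liver genes summed to 22.2 to 34.3 CPM, with Alb at 0 in 2 of the 4 libraries and Serpina1a and Fgb at 0 in 3. Afp, made in fetal liver and yolk sac, was at 2.19 CPM in KO library 1 and at 0 to 0.0396 CPM in the other 3. The part of these cells in the haemoglobin values was not tested.

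**Figure D4:**
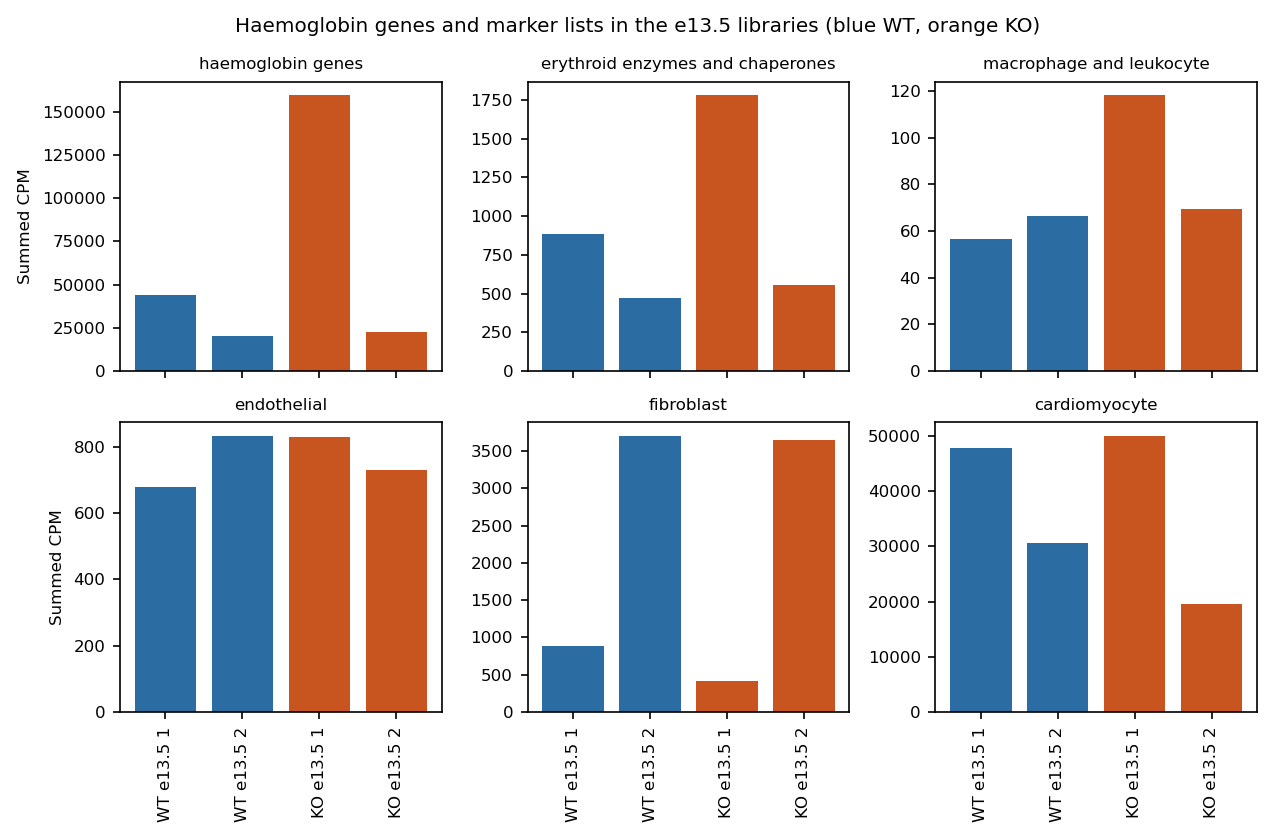
Summed CPM of the 7 haemoglobin genes and of 5 marker lists in the 4 e13.5 libraries (blue WT, orange KO), each panel with its own axis from 0. KO library 1 is highest for haemoglobin (159568 CPM) and for the sums of the erythroid enzymes and chaperones and of the leukocyte genes. The leukocyte genes are split, with 7 higher and 6 lower in KO library 1 than in KO library 2. Library 2 of each genotype is above library 1 for fibroblast genes.

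Myoglobin showed the opposite change with age. Mb (ENSMUSG00000018893, chromosome 15, 77015487 to 77050670, minus strand, 3 exons in its longest coding transcript) had 423 and 267 CPM (WT) and 419 and 156 CPM (KO) at e13.5. In adults it had 11054 and 10708 CPM (WT) and 14902 and 11657 CPM (KO), and no adult library overlapped with an embryonic one. The mean was 31.5-fold higher in WT adults (10881 ± 245 against 345 ± 111 CPM, SD, n = 2) and 46.2-fold higher in KO adults (13279 ± 2295 against 288 ± 186 CPM, SD, n = 2). The log2 change was 4.98 ± 0.70 in WT (adjusted p = 8.37e-04) and 5.53 ± 0.72 for KO (adjusted p = 5.45e-04), and with a library left out it ran from 4.71 to 5.49 and from 4.98 to 6.43. The change did not differ between the genotypes by the test (log2 0.55 ± 0.84, adjusted p = 1). The summed level of the 18 cardiomyocyte markers was also higher in the adult libraries, as given above. Yet 4 of them rose and 5 fell with age in WT, and 5 rose and 5 fell in KO. The shares of all genes were 17.8% up and 21.1% down in WT, and 20.5% up and 20.9% down in KO. Myh6, the adult myosin heavy chain of the mouse heart, rose by 4.13 ± 0.64 and Atp2a2, the calcium pump, by 7.33 ± 0.68 in WT (adjusted p = 0.00130 and 2.42e-04), while Actc1 was at -0.02 ± 0.66 (adjusted p = 0.987). Tnni1, Myl4, Myl7, Myh7 and Tbx5 fell in both genotypes. The part of cardiomyocyte content in the rise of Mb was not tested.

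The balance of the blood and muscle forms turned over between the ages. For each count of Mb there were 103 and 75.3 haemoglobin counts for WT and 381 and 145.5 for KO embryos, against 0.00151 and 0.00810 in WT and 0.0119 and 0.00184 in KO adults. Every embryonic library thus lay above every adult one. At e13.5 library 1 of each genotype had the higher ratio, although it also had the higher Mb level.

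Genes for oxygen and fuel use in muscle rose with Mb. Of 19 such genes, 14 rose and 1 fell in each genotype, with median log2 changes of 2.86 in WT and 3.64 in KO. Beside this, 17.8% of all genes tested rose and 21.1% fell in WT, and 20.5% rose and 20.9% fell in KO. Esrra, a nuclear receptor that drives genes of oxidative metabolism, rose by 4.65 ± 0.53 in WT and 5.13 ± 0.54 in KO (adjusted p = 3.72e-04 and 2.61e-04). Slc2a4, the insulin-responsive glucose transporter, rose by 4.25 ± 0.55 in WT and 3.61 ± 0.54 in KO (adjusted p = 5.70e-04 and 0.00101). Pdk4, a kinase that restrains glucose oxidation, rose by 3.10 ± 0.69 in WT and 5.35 ± 0.77 in KO (adjusted p = 0.00716 and 8.36e-04). The vessel growth factors Vegfa and Vegfb rose too, Vegfa by 7.29 ± 1.08 and Vegfb by 3.96 ± 0.50 in WT, and Srf, a regulator of muscle genes, rose by 3.76 ± 0.49 in KO. The gene that fell was Hif1a, the oxygen-regulated transcription factor, by 1.60 on the log2 scale in WT (SE 0.46, adjusted p = 0.0219) and by 1.40 in KO (SE 0.46, adjusted p = 0.0339). It is named here after its values were seen. Without WT adult library 1, 12 of the 19 rose in WT, while Hif1a passed in 5 of the 8 fits with a library left out in WT (not without WT e13.5 2, WT adult 1 or WT adult 2) and in 2 of 8 in KO (only without either WT e13.5 library).

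**Figure D5:**
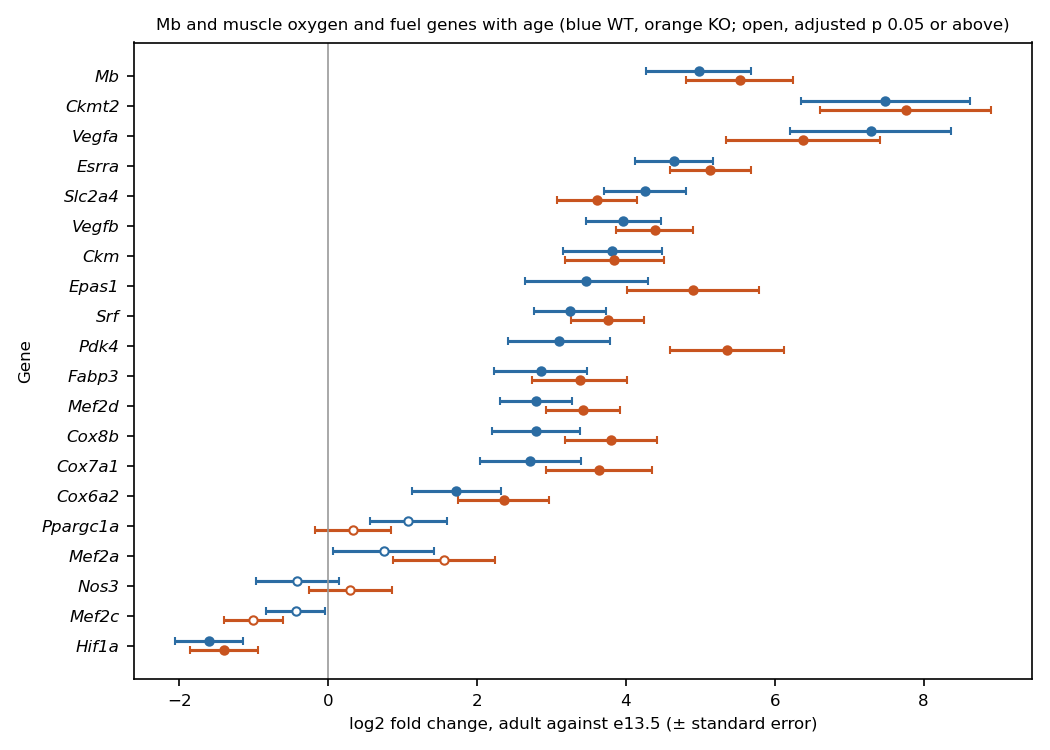
Log2 fold change of adults against e13.5 with its standard error for Mb and the 19 muscle oxygen and fuel genes, in WT (blue) and KO (orange), with open circles where the adjusted p is 0.05 or above. Mb lies at 4.98 in WT and 5.53 in KO, 14 of the 19 genes lie to the right of 0 with filled circles in each genotype, and Hif1a lies to the left.

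Of the tested genes outside the 9, those with the pattern most like that of Mb over the 8 libraries were Kcnk3, Coq8a, Otud3, Kcnj11 and Rasl10b, at root mean square distances of 0.126 to 0.236 between centred log2 CPM values. Kcnk3, which encodes a potassium channel, had 11.8, 8.33, 10.4 and 5.14 CPM at e13.5 and 306 to 425 CPM in adults, with KO adult library 1 highest, as for Mb. The genes nearest to the sum of Hbb-bs and Hbb-bt, Bex3, Ccnb1, Mest, Cited1 and Aurka, lay at 1.06 to 1.18. Those nearest to Hbb-y were Tnni1, Myl7, Hist1h2ap, Myl4 and Igf2bp1, at 1.97 to 3.52. Tnni1, the slow skeletal troponin I used in the embryonic heart, had 2829 and 1366 CPM (WT) and 3066 and 1183 CPM (KO) at e13.5, and at most 0.207 CPM in adults. Its values over the e13.5 libraries spanned less than those of Hbb-y, and for the haemoglobin genes the distances were larger than for Mb.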

How the data were processed

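The authors deposited estimated counts (expected counts) per gene as whole numbers, made with RSEM on the mm10 genome per the submitters' processing notes. Its version, the aligner and the gene annotation: not given in the sources used here. Symbols, positions and transcripts came from GENCODE vM21 (GRCm38). The deposited table's name speaks of normalised input. Its values were taken as unscaled counts because they are whole and their totals differ, and whether the authors scaled them is not given in the sources used here. Genes kept by filterByExpr (16623) were fitted in edgeR 4.0.16 (R 4.3.3) with TMM scaling and 4 group means over all 8 libraries. Shares were computed from counts with exact (Clopper-Pearson) 95% intervals in scipy 1.17.1. The code was tested on simulated data with less spread between libraries than these data, whose common dispersion (a measure of that spread) was 0.212. That test therefore does not show which differences could be found here.

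The 9 genes and the lists were chosen with earlier results of these data known. Named genes were the 9, up to 4 changed genes per list and comparison by smallest p (else the 2 of highest level), and the 5 nearest by pattern (log2 CPM, prior count 2). Alternatives were other scalings, filters, DESeq2 1.42.0, robust fits, fewer libraries, a replicate block, summed pairs and each library left out. List counts with a library left out and the comparison by transcript length were added after seeing the data. Some list genes entered the counts and sums but are not reported here one by one.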

Additional observations from a re-analysis of the deposited data

How the results depend on the processing

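The counts of the 9 genes that changed were the same under every alternative run that kept all 9 genes apart (0, 0, 9, 9 and, for the test of the difference in age change, 0). The exception was Hba-a2 with age in WT when WT adult library 1 was left out, as given above. The run with summed pairs has no separate value for Hba-a2 or Hbb-bt, and there both sums fell with age in each genotype. No direction of change with age turned. The values for KO against WT, none of which passed, turned with single libraries. At e13.5 the log2 differences with a library left out ran from -2.17 to 0.35 for Hba-a2, -0.93 to 2.53 for Hba-x, -0.42 to 2.86 for Hbb-y, -1.53 to 1.95 for Hbb-bh1, -0.37 to 2.47 for Hbb-bs, -1.11 to 1.41 for Hbb-bt, -0.73 to 2.51 for Alas2 and -1.15 to 0.29 for Mb. In adults they ran from -0.03 to 3.67 for Hba-a1, -11.35 to 0.53 for Hba-a2, where the lowest sets WT against a library at 0, -1.17 to 2.79 for Hbb-bs, -2.13 to 4.12 for Hbb-bt and 0.01 to 4.55 for Alas2. With the replicate number as a block, Hbb-bt in adults was at -0.56 (adjusted p = 1), Hbb-y at e13.5 at 1.28 ± 0.60 and Hba-a1 at 1.80, and the block changed no call. Same-numbered libraries deviated together (r = 0.552 at e13.5 and 0.307 in adults, across genes), but 2 numbers do not show that they pair. Per kilobase of exon, the mean Hba-x share in WT at e13.5 was 4.98% in place of 7.28%. Over all genes, 12, 8 and 0 changed between KO and WT at e13.5, in adults and in the difference of age change, against 87, 64 and 30 without the filter, 30, 54 and 7 with DESeq2, and 5 and 2 (with no value for the third) on the libraries of the comparison alone. With age, 6463 (WT) and 6883 (KO) changed, against 2990 and 3001 in WT without WT adult library 1 or 2 and 4181 and 3710 in KO without KO adult library 1 or 2. The cause was not tested. With 2 libraries a group, differences between the genotypes under the spread of the e13.5 libraries were not detectable.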

Other observations

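The remaining globin genes of the mouse were scarce at e13.5 next to the 9 genes above. Of 7 such genes, all in the table, 3 were tested. Cygb, which encodes cytoglobin, found in fibroblast-like cells of many tissues, had 4.15 and 4.37 CPM (WT) and 1.38 and 4.0 CPM (KO) at e13.5, and 42.2 and 26.2 CPM (WT) and 74.9 and 23.4 CPM (KO) adults. In adults Cygb stood above Hbb-bt and Alas2 in every library. It also stood above the sum of the haemoglobin genes in WT adult library 1 (16.7 CPM) and KO adult library 2 (21.5 CPM). It rose with age by 3.0 ± 0.70 on the log2 scale in WT (edgeR adjusted p = 0.00863) and 4.18 ± 0.74 in KO (adjusted p = 0.00221), as Mb did. Without WT adult library 1 it did not pass in WT. The theta globin genes Hbq1a and Hbq1b, from the alpha cluster, fell in both genotypes. Hbq1a had 1.66 and 0.448 CPM (WT) and 9.50 and 1.82 CPM (KO) at e13.5, and Hbq1b had 2.35, 1.03, 6.19 and 0.673 CPM in the same order. Both had 0 counts in all 4 adult libraries. With a library left out, Hbq1a passed in 5 of 8 fits in WT and Hbq1b in 6 of 8 in each genotype, and neither passed in WT without WT adult library 1 or without WT adult library 2. Hbq1a also did not pass in WT without WT e13.5 library 1, and Hbq1b did not pass in KO without either KO adult library. As for the haemoglobin genes other than Hba-a2, KO e13.5 library 1 was the highest for both theta genes. The 2 other beta-type genes, Hbb-bh0 and Hbb-bh2, did not exceed 0.5 CPM in any library.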
